A study of Mus musculus with 6 samples.

Results

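The Hippo pathway coactivators YAP and TAZ, their DNA-binding partner TEAD1 and a set of their target genes were followed as 9 genes of the 54532 in the deposited expression table. The genes were taken by symbol: Yap1, Wwtr1 (the gene for TAZ), Tead1, Ctgf, Cyr61, Ankrd1, Amotl2, Ajuba and Cav1. They had been picked because their levels differed in this same dataset, so their differences between the groups are given below as a description, without any test.

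The libraries came from mouse bone marrow-derived macrophages (BMDMs), phagocytes grown in culture from marrow, that had been kept together with ID8 cells, a mouse ovarian cancer line. Before the co-culture the ID8 cells had received either 40 µM cisplatin, a platinum drug that damages DNA (3 libraries, below the cisplatin libraries), or phosphate-buffered saline (PBS, 3 libraries). The marrow was from C57BL/6 mice aged 6 to 8 weeks, and the labels name no allele, transgene or drug for the BMDMs themselves. Both groups share the co-culture, no library of BMDMs alone or of ID8 cells alone was analysed here, and nothing in the methods or labels states that ID8 cells were fully removed before RNA was taken. ID8 is a single line, and the labels do not say that the 3 libraries of a group came from separate animals or cultures.

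The Hippo pathway is a kinase cascade that restrains growth in response to cell contact, tension and cell shape. Its kinases MST1 and MST2 (Stk4 and Stk3) activate LATS1 and LATS2, which phosphorylate YAP and TAZ, so that both are held in the cytoplasm and degraded. When the cascade is quiet, YAP and TAZ enter the nucleus, bind TEAD factors on DNA and raise the transcription of genes such as Ctgf, Cyr61 and Ankrd1. YAP and TAZ are known above all from adherent epithelial, mesenchymal and endothelial cells and from carcinomas.

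TEAD factors bind the hexamer GGAATG, which reads CATTCC on the other strand, and the promoter windows of these genes are shown to let that hexamer be seen beside their values. Each window ran from 250 bases before the RefSeq start of the gene to 50 bases after it on GRCm38.p6, 300 bases in all. Of the 9 genes, 7 had an entry, and Ctgf and Tead1 had none. At 77.8% matched, under the 80% needed, no statement over the whole group is made from the windows, and they are described one by one. The sequences below run 5′ to 3′ on the strand of the gene, with the TEAD hexamer, in either orientation, in capitals. Cyr61 lies at chr3:145649936-145650235 (minus strand), Ankrd1 at chr19:36119795-36120094 (minus), Amotl2 at chr9:102717554-102717853 (plus), Ajuba at chr14:54577612-54577911 (minus), Yap1 at chr9:8004547-8004846 (minus) and Wwtr1 at chr3:57575861-57576160 (minus).
Cyr61: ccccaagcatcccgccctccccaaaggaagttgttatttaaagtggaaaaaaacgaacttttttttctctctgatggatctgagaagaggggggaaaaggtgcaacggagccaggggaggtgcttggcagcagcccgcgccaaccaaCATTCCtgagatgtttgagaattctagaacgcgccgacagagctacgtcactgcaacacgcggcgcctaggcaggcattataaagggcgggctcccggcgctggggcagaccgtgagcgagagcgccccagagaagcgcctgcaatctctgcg
Ankrd1: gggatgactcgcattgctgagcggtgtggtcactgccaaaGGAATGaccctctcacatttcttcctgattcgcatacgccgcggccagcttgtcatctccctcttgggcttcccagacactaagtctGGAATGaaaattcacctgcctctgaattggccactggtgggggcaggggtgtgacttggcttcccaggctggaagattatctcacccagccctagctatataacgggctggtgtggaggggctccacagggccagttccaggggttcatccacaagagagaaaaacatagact
Amotl2: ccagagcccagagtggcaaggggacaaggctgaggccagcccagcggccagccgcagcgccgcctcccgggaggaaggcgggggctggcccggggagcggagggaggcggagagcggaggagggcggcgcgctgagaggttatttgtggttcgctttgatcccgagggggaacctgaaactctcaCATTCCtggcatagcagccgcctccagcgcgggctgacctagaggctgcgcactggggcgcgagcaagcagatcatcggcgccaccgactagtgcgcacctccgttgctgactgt
Ajuba: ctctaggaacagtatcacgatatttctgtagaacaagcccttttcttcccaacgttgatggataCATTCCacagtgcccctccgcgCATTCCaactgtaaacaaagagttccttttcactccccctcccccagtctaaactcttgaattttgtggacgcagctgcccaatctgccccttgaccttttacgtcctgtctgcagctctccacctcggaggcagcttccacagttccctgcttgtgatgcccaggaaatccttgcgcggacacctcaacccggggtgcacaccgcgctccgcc
Yap1: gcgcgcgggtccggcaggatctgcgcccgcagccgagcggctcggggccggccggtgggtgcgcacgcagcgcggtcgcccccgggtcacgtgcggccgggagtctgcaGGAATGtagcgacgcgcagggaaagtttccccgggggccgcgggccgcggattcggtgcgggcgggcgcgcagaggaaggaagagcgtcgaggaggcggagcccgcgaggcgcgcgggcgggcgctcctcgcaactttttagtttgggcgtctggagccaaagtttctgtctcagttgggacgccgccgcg
Wwtr1: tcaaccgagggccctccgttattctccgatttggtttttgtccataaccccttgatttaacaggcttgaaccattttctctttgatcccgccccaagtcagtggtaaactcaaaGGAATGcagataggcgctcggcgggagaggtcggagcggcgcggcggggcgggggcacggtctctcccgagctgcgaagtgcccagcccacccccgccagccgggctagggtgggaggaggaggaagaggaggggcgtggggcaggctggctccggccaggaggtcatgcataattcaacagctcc

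The Cyr61 window held the hexamer once, in the other orientation, 103 bases before the start. Ankrd1 carried it on the gene strand 210 and 123 bases before the start. In Amotl2 it stood 65 bases before the start and in Ajuba at 186 and 164 bases, each time in the other orientation. The promoters of the coactivators themselves held it too, on the gene strand, at 141 bases in Yap1 and at 136 bases in Wwtr1. A second RefSeq start of Wwtr1 placed the same hexamer 170 bases before it. Cav1, with 2 RefSeq starts, had no match in either window. Of all 32851 promoter windows in the table, 14.7% held GGAATG on at least 1 strand. These are matches of letters in short windows, not measured binding.

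**Figure D1:**
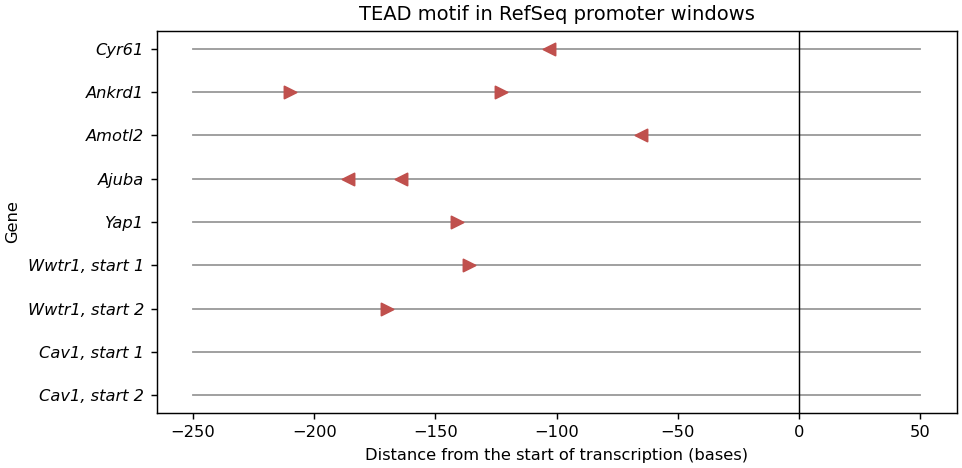
Position of the TEAD hexamer GGAATG in the promoter windows of the genes, in bases from the RefSeq start (x axis), with 1 row per window and the orientation of each match marked. The matches lay between 65 and 210 bases before the start, and the Cav1 windows held none.

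All 9 genes stood lower in the cisplatin libraries, and for each of them the lowest PBS library was above the highest cisplatin library. Their differences on the log2(FPKM + 1) scale ran from -1.28 (Ankrd1) to -3.86 (Ctgf), with a median of -1.94 against -0.0011 over all 13441 genes tested. FPKM, the unit of the table, counts fragments per kilobase of gene length, scaled to the number of reads in the library. Of all genes tested, 37.2% were lower without overlap between the groups and 35.2% were higher without overlap. A difference of -1 or below was found for 11.3% of genes without regard to a p. Since these genes were chosen from the same contrast, nothing is read from their count. The direction depends on what the libraries are scaled to: scaled instead to the ID8 and mesothelial markers described below, Ankrd1 (0.59), Ajuba (0.093) and Cav1 (0.47) became higher in the cisplatin libraries. The other 6 kept a negative sign, but apart from Ctgf (-2.57) with much smaller differences: Cyr61 (-0.49), Tead1 (-0.42), Amotl2 (-0.33), Wwtr1 (-0.24) and Yap1 (-0.11). That scaling raised the median of all genes by 1.60, and relative to that median all 9 remained lower. The scaling shifts all genes of a library nearly together, so this sign was close to fixed beforehand and is no check.

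In these bulk libraries, fewer cells of a type and less RNA per cell cannot be told apart. Most marker genes of ID8 and mesothelial cells were lower where the members were: their summed level was 247 to 268 FPKM in the cisplatin libraries and 1311 to 1414 FPKM in the PBS libraries, 8 of the 10 tested of 14 were called lower, and 1, Cdh1, was higher and not called. The members summed to 53.9 to 57.4 FPKM against 199.8 to 210.4 FPKM, or 27.2% of the PBS level, where the ID8 and mesothelial markers kept 18.9%. Without Krt19, the most abundant of them, the markers kept 26.6%. The part of the ID8 markers in the members' difference was not tested.

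**Figure D2:**
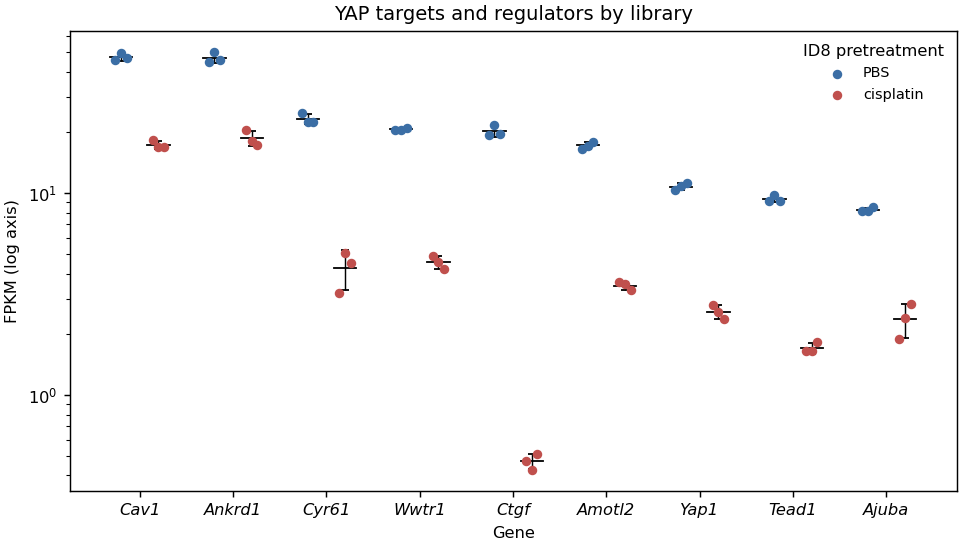
FPKM of each of the 9 genes in every library (y axis, log scale), with 3 cisplatin and 3 PBS libraries as points and the mean and SD of each group as black lines. In each gene the cisplatin points lay below all PBS points, in FPKM as deposited; under scaling to ID8 and mesothelial markers Ankrd1, Ajuba and Cav1 turned higher.

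The coactivators come first. Yap1 (ENSMUSG00000053110, chr9:7931999-8004596, minus strand) codes for YAP. It measured 10.3, 10.8 and 11.2 FPKM in the PBS libraries and 2.79, 2.58 and 2.39 FPKM in the cisplatin libraries. The 3 values of each group lay close together and the groups far apart. The mean was 10.8 ± 0.43 FPKM with PBS and 2.58 ± 0.20 FPKM with cisplatin (SD, n = 3, as for all means below), a level 4.17-fold lower and a log2 difference of -1.72 (SE 0.063). About 365 to 439 reads lay behind each cisplatin value and 1560 to 1691 behind each PBS value. Wwtr1 (ENSMUSG00000027803, chr3:57455649-57575910, minus strand), the gene for TAZ, read 20.6, 20.6 and 21.2 FPKM with PBS and 4.88, 4.55 and 4.21 FPKM with cisplatin. Its mean went from 20.8 ± 0.33 to 4.55 ± 0.34 FPKM, 4.57-fold lower, with a log2 difference of -1.97 (SE 0.056). Both paralogues thus kept similar shares of their PBS level, 24.0% ± 1.86 for Yap1 and 21.9% ± 1.63 for Wwtr1.

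Wwtr1 exceeded Yap1 in every library. The ratio of their levels was 1.99, 1.91 and 1.89 in the PBS libraries and 1.75, 1.76 and 1.76 in the cisplatin libraries, so the groups did not overlap although the ratio moved little. In cisplatin library 1 both coactivators were highest and in library 3 both were lowest of their group. The antisense genes Gm20416 at Yap1 and Gm16016 at Wwtr1 share their loci, and it is not stated whether the counting used strand. Ctgf (Gm15270), Tead1 (2310014F06Rik) and Cav1 (Gm15581) overlap antisense genes too, so their reads could be shared in the same way. Tead1 also overlaps Gm44462 on its own strand, where counting by strand would not separate them.

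Tead1 (ENSMUSG00000055320, chr7:112679318-112906807, plus strand) codes for the transcription factor through which YAP and TAZ reach DNA. Its values were 9.19, 9.75 and 9.20 FPKM in the PBS libraries and 1.65, 1.65 and 1.82 FPKM in the cisplatin libraries. The groups were separated and varied little within themselves. The mean was 9.38 ± 0.32 FPKM with PBS and 1.70 ± 0.10 FPKM with cisplatin, 5.50-fold lower, with a log2 difference of -1.94 (SE 0.058). Relative to Yap1, Tead1 stood at 0.89, 0.90 and 0.82 in the PBS libraries and at 0.59, 0.64 and 0.76 in the cisplatin libraries. The ratio was thus lower with cisplatin, and it varied more there.

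Among the targets, Ctgf and Cyr61 code for secreted matricellular proteins of the CCN family and serve as standard readouts of YAP activity (their current symbols are Ccn2 and Ccn1). Ctgf (ENSMUSG00000019997, chr10:24595442-24598683, plus strand) showed the largest difference of the 9 genes. It measured 19.5, 21.8 and 19.7 FPKM in the PBS libraries and 0.473, 0.426 and 0.508 FPKM in the cisplatin libraries. Only 23, 20 and 24 reads were behind the cisplatin values, against 986, 972 and 875 reads with PBS, so counting error is larger for Ctgf than for the others. Its mean was 20.3 ± 1.28 FPKM with PBS and 0.469 ± 0.041 FPKM with cisplatin, 43.4-fold lower. It was the sole member that reached 1 FPKM in the PBS libraries only, and its log2 difference of -3.86 (SE 0.064) is reduced by the pseudocount of 1.

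Cyr61 (ENSMUSG00000028195, chr3:145646976-145649981, minus strand) measured 24.9, 22.5 and 22.5 FPKM with PBS and 3.20, 5.07 and 4.53 FPKM with cisplatin. Its cisplatin libraries differed more among themselves than those of most other members, and library 1, where 5 of the others were highest, was lowest for Cyr61. The mean went from 23.3 ± 1.36 to 4.27 ± 0.96 FPKM, 5.46-fold lower, with a log2 difference of -2.22 (SE 0.13). The Ctgf to Cyr61 ratio was 0.784, 0.970 and 0.876 in the PBS libraries and 0.148, 0.084 and 0.112 in the cisplatin libraries. The 2 CCN genes were nearly equal with PBS and far apart with cisplatin.

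Ankrd1 (ENSMUSG00000024803, chr19:36111965-36119844, minus strand) codes for a nuclear ankyrin-repeat protein that responds to mechanical load. It read 44.7, 50.02 and 45.6 FPKM in the PBS libraries and 20.6, 18.2 and 17.4 FPKM in the cisplatin libraries. Of the 9 genes it kept the largest share of its PBS level, 40.0% ± 3.54. The mean was 46.8 ± 2.83 FPKM with PBS and 18.7 ± 1.66 FPKM with cisplatin, 2.50-fold lower, with a log2 difference of -1.28 (SE 0.072). Ankrd1 and Ctgf, both known as direct YAP and TEAD targets, therefore differed widely in what was left. The ratio of Ankrd1 to Yap1 was 4.35 ± 0.27 with PBS and 7.24 ± 0.16 with cisplatin, while that of Ctgf to Yap1 was 1.89 ± 0.13 and 0.182 ± 0.026.

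Amotl2 and Ajuba are targets that also act back on the pathway. Amotl2 (ENSMUSG00000032531, chr9:102716672-102733418, plus strand), an angiomotin that binds YAP at cell junctions, measured 16.6, 17.2 and 17.95 FPKM with PBS and 3.62, 3.53 and 3.31 FPKM with cisplatin. The mean went from 17.3 ± 0.65 to 3.49 ± 0.16 FPKM, 4.95-fold lower, with a log2 difference of -2.03 (SE 0.052). Relative to Yap1 it stood at 1.60 ± 0.011 with PBS and 1.35 ± 0.048 with cisplatin. Ajuba (ENSMUSG00000022178, chr14:54567472-54577558, minus strand), a LIM protein that binds and restrains LATS kinases, was the lowest of the 9 genes in the PBS libraries. Its values were 8.18, 8.19 and 8.51 FPKM with PBS and 1.90, 2.41 and 2.82 FPKM with cisplatin. The mean went from 8.29 ± 0.19 to 2.38 ± 0.46 FPKM, 3.49-fold lower, with a log2 difference of -1.47 (SE 0.10). Its ratio to Yap1 overlapped between the groups, at 0.77 ± 0.020 with PBS and 0.93 ± 0.25 with cisplatin.

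Cav1 (ENSMUSG00000007655, chr6:17306335-17341452, plus strand) codes for caveolin-1, the coat protein of caveolae, the small pits of the plasma membrane that flatten under tension. It measured 45.8, 49.5 and 46.7 FPKM in the PBS libraries and 18.3, 17.0 and 16.9 FPKM in the cisplatin libraries. With Ankrd1 it was the most abundant of the 9 genes, and like Ankrd1 it kept more of its level than the coactivators. The mean was 47.4 ± 1.94 FPKM with PBS and 17.4 ± 0.78 FPKM with cisplatin, 2.72-fold lower, with a log2 difference of -1.39 (SE 0.048). The ratio of Cav1 to Yap1 was 4.40 ± 0.20 with PBS and 6.76 ± 0.30 with cisplatin.

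Ordered by level in the PBS libraries, Cav1 and Ankrd1 came first, followed by Cyr61, Wwtr1, Ctgf, Amotl2, Yap1, Tead1 and Ajuba. The libraries of Cav1 and Ankrd1 overlapped, as did those of Wwtr1 and Ctgf, and the other neighbours in that order did not. With cisplatin, Ankrd1 and Cav1 again came first, with overlapping libraries. Wwtr1, Cyr61 and Amotl2 followed, each overlapping its neighbour, then Yap1 and Ajuba, which overlapped, then Tead1, and Ctgf had moved to the last place. Within the cisplatin group, library 1 was highest for 5 genes (Ankrd1, Amotl2, Yap1, Wwtr1 and Cav1) and library 3 was lowest for the same 5. Cyr61, Ajuba and Tead1 were lowest in library 1.

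**Figure D3:**
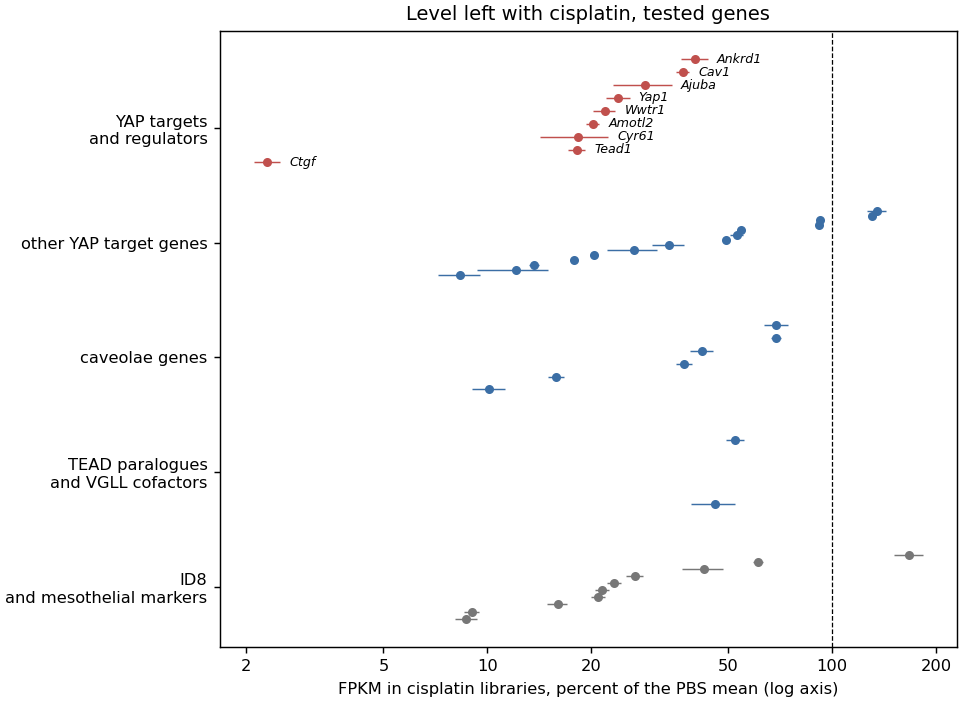
Level in the cisplatin libraries as a percentage of the PBS mean (x axis, log scale), mean and SD over 3 libraries, for each tested gene of the group and of 4 other lists. Ctgf lay at 2.31% and the other members between 18.2% and 40.0%, in FPKM as deposited; under scaling to ID8 and mesothelial markers Ankrd1, Ajuba and Cav1 turned higher.

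The rest of the pathway was read from 4 lists of related genes, tested by limma with Benjamini-Hochberg adjustment over all 13441 genes. A gene was called when its adjusted p was under 0.05 and its log2 difference at least 1 in either direction, which held for 15.9% of all genes (4.67% higher and 11.3% lower). The lists were written from pathway knowledge, with earlier results of these data known. Among all calls 29.3% were higher; this share was 39.7% in a count-based fit by limma voom, 39.3% after quantile normalisation, 1.61% with scaling to Y-linked genes and 98.2% with scaling to ID8 and mesothelial markers.

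Of 26 genes for the Hippo kinases and their upstream regulators, 23 were tested, 0 were called higher, 3 lower and 20 not called, and the median was -0.044. The count called lower was 6 with a pseudocount of 0.1 and 11 with scaling to Y-linked genes. Their summed level was 101.9% of the PBS level. Abundant genes carried much of that sum, such as Ywhae (180 FPKM with PBS and 178 FPKM with cisplatin), Ywhab (70.4 and 86.5 FPKM) and Mob1a (66.3 and 87.5 FPKM). It therefore says little of the less abundant genes. The 3 called genes, Wwc1, Amotl1 and Frmd6, turned higher with scaling to ID8 and mesothelial markers, which called 16 of the 23 higher. Wwc1 (KIBRA, an upstream activator of the kinases) fell from 8.68 ± 0.14 to 2.63 ± 0.30 FPKM (-1.42, adjusted p = 3.81e-06, limma). Amotl1, a relative of Amotl2, fell from 7.11 ± 0.39 to 2.62 ± 0.26 FPKM (-1.16, adjusted p = 1.28e-05). Frmd6, a FERM protein upstream of the kinases, was at 11.3 ± 0.55 FPKM with PBS and 5.12 ± 0.18 FPKM with cisplatin (-1.01, adjusted p = 5.06e-06). Its fold change lies at the threshold, and the call was lost without cisplatin replicate 3 (-0.99), without PBS replicate 2 (-0.997), without PBS replicate 3 (-0.98), under median-of-ratios scaling (-0.995) and after quantile normalisation (-0.90).

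The kinases themselves did not share a direction in FPKM as deposited. Scaling to ID8 and mesothelial markers raised the median of all genes by 1.60 and turned Stk3 positive (0.76), beside 2.67 for Stk4. Relative to that median their signs still differed (Stk3 -0.83, Stk4 1.08), which a shift common to all genes leaves nearly fixed. Stk4 (MST1) measured 37.7 ± 1.98 FPKM with PBS and 65.8 ± 2.10 FPKM with cisplatin (0.79, adjusted p = 1.01e-05), and Stk3 (MST2) measured 8.80 ± 0.44 and 4.29 ± 0.50 FPKM (-0.89, adjusted p = 6.52e-05). Neither reached the threshold of 1 on the log2(FPKM + 1) scale, though Stk3 kept 48.7% of its PBS level in FPKM. Lats1 measured 11.9 ± 0.43 and 12.2 ± 0.93 FPKM (0.023, adjusted p = 0.762). Lats2, which is itself a YAP target, measured 4.88 ± 0.30 and 6.38 ± 0.11 FPKM (0.33, adjusted p = 0.00174), and the tumour suppressor Nf2 (merlin) 10.8 ± 0.57 and 12.2 ± 0.25 FPKM (0.16, adjusted p = 0.0241). All signs above 0 here turned negative with scaling to Y-linked genes, which moves the median of all genes by -0.83.

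Besides Tead1, the TEAD family was low. Of 7 TEAD and VGLL genes 2 were tested, and neither was called, a count that became 1 lower with a pseudocount of 0.1 or with limma voom and 2 lower with scaling to Y-linked genes; both differences became positive with scaling to ID8 and mesothelial markers. Tead4 measured 2.24 ± 0.14 FPKM with PBS and 1.02 ± 0.15 FPKM with cisplatin (-0.68, adjusted p = 0.000529). Vgll4, a cofactor that competes with YAP for TEAD, measured 10.4 ± 0.41 and 5.44 ± 0.32 FPKM (-0.82, adjusted p = 1.83e-05). Tead3 (0.762 ± 0.063 and 0.245 ± 0.032 FPKM) and Tead2 (0.348 ± 0.017 and 0.611 ± 0.064 FPKM) stayed below the filter. Tead1 was thus the most abundant of the TEAD genes in both groups.

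Of 18 other genes known as YAP and TAZ targets, 14 were tested, 7 were called lower, 0 higher and 7 not called, with a median of -1.09. Their summed level was 121 to 125 FPKM with cisplatin and 289 to 306 FPKM with PBS, or 40.9% of the PBS level. Tgfb2, a TGF-beta ligand, fell from 14.99 ± 0.61 to 1.25 ± 0.17 FPKM (-2.83, adjusted p = 2.03e-07). Axl, a receptor tyrosine kinase, fell from 83.9 ± 1.97 to 14.9 ± 0.21 FPKM (-2.41, adjusted p = 4.58e-08). F3, the coagulation initiator tissue factor, fell from 10.9 ± 0.81 to 1.33 ± 0.31 FPKM (-2.36, adjusted p = 2.41e-06). The list was not uniform: Lats2 and Gadd45a (0.41, adjusted p = 0.00256) had positive signs and were not called. With scaling to ID8 and mesothelial markers 1 of the 14 was called lower and 5 higher.

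Cav1 was set beside 8 further genes of caveolae, of which 6 were tested, 4 called lower, 0 higher and 2 not called (median -1.23, summed level 34.6% of PBS). Cavin3 and Cavin1, coat proteins that stabilise caveolae, fell from 25.1 ± 2.33 to 2.54 ± 0.28 FPKM (-2.88, adjusted p = 3.90e-07) and from 76.2 ± 4.90 to 12.1 ± 0.64 FPKM (-2.56, adjusted p = 1.45e-07). The caveolar neck ATPase Ehd2 fell from 16.6 ± 0.63 to 6.17 ± 0.34 FPKM (-1.29, adjusted p = 1.57e-06) and Cav2, the partner of Cav1, from 23.3 ± 1.89 to 9.77 ± 0.73 FPKM (-1.17, adjusted p = 1.21e-05). Cav3, the muscle caveolin, was listed at 0 in every library. Cav1 kept more of its level than Cavin1, and the ratio of the 2 was 0.62 ± 0.067 with PBS and 1.45 ± 0.13 with cisplatin. With scaling to ID8 and mesothelial markers 1 of the 6 was called lower and 2 higher.

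**Figure D4:**
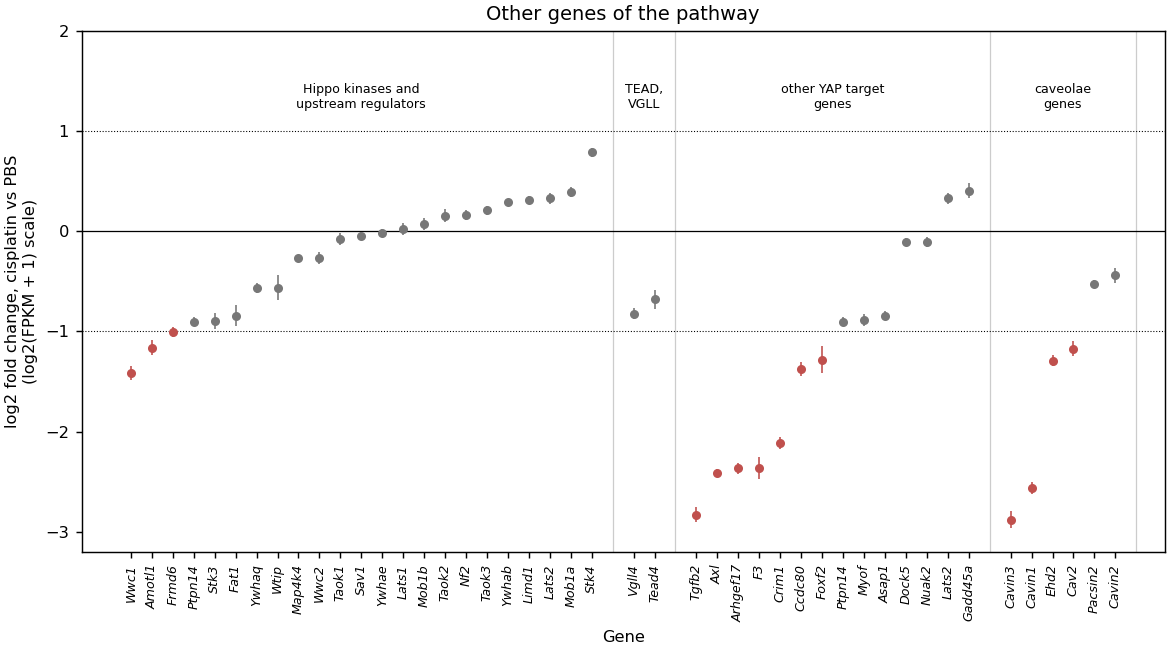
Log2 difference, cisplatin against PBS on the log2(FPKM + 1) scale (y axis), of every tested gene of the 4 pathway lists, grouped by list, with lines for the SE and called genes in red. The Hippo kinases and upstream regulators spread around 0 (3 called lower of 23), while 7 of 14 other YAP targets and 4 of 6 caveolae genes were called lower; the signs of several genes turn under scaling to ID8 and mesothelial or Y-linked genes.

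The ID8 and mesothelial markers were not uniform. Krt19 fell from 588 ± 28.8 to 51.1 ± 3.80 FPKM (-3.50, adjusted p = 7.18e-08), Krt8 from 151 ± 8.93 to 24.2 ± 1.57 FPKM (-2.60) and Krt18 from 123 ± 3.93 to 28.7 ± 1.38 FPKM (-2.07), while Msln measured 99.9 ± 1.29 and 61.0 ± 2.10 FPKM (-0.70, adjusted p = 4.18e-06) and was not called. Cdh1 (E-cadherin) went the other way, at 3.24 ± 0.52 FPKM in the PBS and 5.41 ± 0.53 FPKM in the cisplatin libraries (0.60, adjusted p = 0.00238, not called), a sign that turned with scaling to Y-linked genes (-0.20). Krt7, Lrrn4, Epcam and Igfbp5 were below the filter. The share of its PBS level that Yap1 kept, 24.0% ± 1.86, lay within the range of these markers: Krt19 (8.69%), Wt1 (9.02%), Krt8 (16.0%), Igfbp6 (20.9%) and Sparc (21.5%) kept less, Krt18 (23.3%) about as much, and Upk3b (26.8%), Upk1b (42.5%) and Msln (61.1%) more. The 9 fibroblast and endothelial markers went both ways. Of the 4 tested, Dcn was called lower (54.1 ± 2.62 FPKM with PBS and 16.2 ± 0.84 FPKM with cisplatin, -1.68), and 3 were not called: Tek (-0.92, adjusted p = 0.000118), Thy1 (0.58, adjusted p = 0.00386) and Pecam1 (0.66, adjusted p = 2.43e-05). Scaling to Y-linked genes turned Thy1 (-0.16) and Pecam1 (-0.24), and scaling to ID8 and mesothelial markers turned Dcn (0.18) and Tek (0.40). The count called lower was 2 with a pseudocount of 0.1, TPM rescaling, Y-linked scaling or limma voom, and 0 with scaling to ID8 and mesothelial markers. Of the 5 below the filter, Pdgfrb, Cdh5, Kdr and Lum were higher without overlap and Pdgfra lower. Lum rested on only 3 to 7 reads per cisplatin library and 0 to 2 per PBS library, and Cdh5 on 17 to 26 and 6 to 15. Over all tested genes 35.2% were higher and 37.2% lower without overlap. The summed level of 34.5 to 36.2 FPKM against 66.6 to 70.9 FPKM includes Dcn, which made up 78.1% of the PBS sum and 45.4% of the cisplatin sum. Without Dcn the other 8 summed to 19.1 to 20.2 FPKM with cisplatin and 14.9 to 15.5 FPKM with PBS.

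Macrophage markers were present in every library and moved the other way. All 10 were tested, all were higher in the cisplatin libraries and 3 were called (Itgam, Lyz2 and Mertk), while with scaling to Y-linked genes 0 were called and the median was -0.09. The count called higher was 10 with scaling to ID8 and mesothelial markers and 5 with limma voom. Mertk (1.08) rests on 9 to 33 reads per PBS library and lost its call without PBS replicate 3 (0.99). Their summed level was 4326 to 4489 FPKM with cisplatin and 1716 to 1727 FPKM with PBS. Lyz2 carried most of both sums, and without it the other 9 stood at 924 to 938 FPKM against 554 to 566 FPKM, or 165.6% of the PBS level in place of 254.9%. Adgre1 (F4/80) measured 103 ± 1.06 and 190 ± 3.52 FPKM with PBS and cisplatin, Csf1r 44.0 ± 0.62 and 84.5 ± 2.37 FPKM, and Ptprc (CD45) 23.4 ± 0.047 and 39.2 ± 0.79 FPKM; none of these reached the threshold of 1, and all 3 signs turned with scaling to Y-linked genes. The Y-linked genes summed to 41.6 to 42.8 FPKM with cisplatin and 19.5 to 22.7 FPKM with PBS, Ddx3y being called higher (19.2 ± 0.66 against 8.10 ± 0.52 FPKM, 1.15, adjusted p = 3.15e-06). Xist, the transcript of the inactive X chromosome of female cells, fell from 42.7 ± 5.35 to 7.79 ± 0.19 FPKM (-2.31, adjusted p = 8.79e-07), to 18.3% of its PBS level. The sex of the marrow donors was not given. The part of these markers in the members' difference was not tested.

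The genes most like Yap1 over the 6 libraries were found by the root mean square difference of log2(FPKM + 1), each gene centred on its own mean. The pseudocount of 1 reduces the difference of low genes, so a likeness on this scale need not hold in linear fold, as for Prcd. They were Dcbld2 (0.0191, 8.99 ± 0.29 against 2.07 ± 0.22 FPKM with PBS and cisplatin), Epb41l4b (0.0223, 4.88 ± 0.18 against 0.754 ± 0.076 FPKM) and Prcd (0.0266, 2.74 ± 0.084 against 0.117 ± 0.037 FPKM). The nearest to Ctgf were farther from it: Ifit3b (0.0572, 66.8 ± 2.79 against 3.53 ± 0.12 FPKM), Lctl (0.0895, 17.5 ± 2.38 against 0.377 ± 0.054 FPKM) and Sema4g (0.10, 77.4 ± 0.79 against 3.88 ± 0.15 FPKM). Ifit3b has a near-identical copy, Ifit3, so its reads may be shared.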

How the data were processed

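RNA was sequenced from 6 libraries of BMDMs co-cultured with ID8 cells, 3 per group, and groups and replicate numbers were taken from the labels. The authors deposited FPKM values per gene. Their processing notes name fastp, HISAT2 2.0.5, featureCounts 1.5.0-p3 and mm10, whereas the methods name LifeScope for alignment and counting; strandedness is not stated in either. Multiplied by gene length, 100% of the values under 200 reads were whole (tolerance 0.02), and such recovered reads gave totals of 15776238 to 16396353 per cisplatin library and 15907567 to 17924686 per PBS library; 1 read on 1 kb was worth 0.0565 to 0.0645 FPKM. Coordinates are those of the deposited table.

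Genes with at least 1 FPKM in at least 3 of 6 libraries (13441) were transformed to log2(FPKM + 1) and fitted in limma 3.58.1 under R 4.3.3 (lmFit, eBayes with a trend) with the group as the only term. Differences are cisplatin against PBS on that scale, which understates the change of low genes. A gene was called at p under 0.05 (adjusted by Benjamini-Hochberg) with a log2 difference of 1 or more. The script was tested on simulated data. P-values measure the spread between these libraries, which may be technical.

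The members and lists were chosen with earlier results of these data known. Genes named were all members; the called genes of each pathway list with the largest differences, up to 4, of which 1 among the other YAP targets is not reported here; a fixed set of pathway and marker genes; and the 3 genes most like Yap1 and Ctgf. Gadd45a, Cdh1, Upk3b, Upk1b, Dcn, Tek, Thy1, Pecam1, Pdgfrb, Cdh5, Kdr, Lum, Pdgfra, Itgam, Lyz2, Mertk, Cav3, Krt7, Lrrn4, Epcam and Igfbp5, with Wt1, Igfbp6, Sparc, Ywhae, Ywhab and Mob1a, were named after their values were seen. Promoter sequences are from RefSeq. Alternatives covered the pseudocount, filter, scaling, model, replicate block and each library left out.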

Additional observations from a re-analysis of the deposited data

How the results depend on the processing

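All 9 members stayed lower under every alternative except scaling to ID8 and mesothelial markers, which turned Ankrd1 (0.59), Ajuba (0.093) and Cav1 (0.47). That scaling also turned Stk3 (0.76), Tead4 (0.48), Vgll4 (0.88), Cav2 (0.64), Msln (1.21), Wwc1 (0.17), Amotl1 (0.40), Frmd6 (0.70) and Ehd2 (0.46). Scaling to Y-linked genes turned Lats1 (-0.90), Lats2 (-0.52), Stk4 (-0.19), Nf2 (-0.76), Adgre1 (-0.12), Csf1r (-0.057) and Ptprc (-0.25). Lats1 also turned without cisplatin replicate 1 (-0.029) and without PBS replicate 2 (-0.0048), its range with 1 library left out reaching 0.072. Relative to the median of all genes under each scaling, all 9 members were lower and 32 of 33 other named genes kept their sign, Lats1 being the exception. Each scaling moved the median of all genes by its construction (-0.83 for Y-linked genes and 1.60 for ID8 and mesothelial markers). Because it shifts all genes nearly together, signs relative to the median are nearly fixed beforehand and are no check. The cause of the turns of Lats1 was not tested.

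Over the whole table, 628 genes were called higher and 1514 lower. The higher count was 973 with a pseudocount of 0.1, 85 with Y-linked scaling, 10280 with ID8 scaling, 1227 with limma voom on the recovered reads and 4424 by adjusted p alone, and the lower count 5181, 193 and 4721 with Y-linked scaling, ID8 scaling and adjusted p alone. Hippo kinases and upstream regulators gave 16 higher with ID8 scaling and 7 by adjusted p alone, and 6, 11, 0 and 10 lower with the pseudocount, Y-linked scaling, ID8 scaling and adjusted p alone. TEAD and VGLL genes gave 1, 2, 1 and 2 lower with the pseudocount, Y-linked scaling, voom and adjusted p alone. Other YAP targets gave 5 higher with ID8 scaling and 2 by adjusted p alone, and 11, 1 and 11 lower with Y-linked scaling, ID8 scaling and adjusted p alone. Caveolae genes gave 2 higher and 1 lower with ID8 scaling. ID8 and mesothelial markers gave 2 higher and 2 lower with ID8 scaling and 1 higher by adjusted p alone. Fibroblast and endothelial markers gave 2 higher with ID8 scaling and by adjusted p alone, and 0 lower with ID8 scaling against 2 with the pseudocount, TPM rescaling, Y-linked scaling, voom and adjusted p alone. Macrophage markers gave 0, 10, 5 and 10 higher with Y-linked scaling, ID8 scaling, voom and adjusted p alone, and Y-linked genes 2, 0, 4, 2 and 4 with the pseudocount, Y-linked scaling, ID8 scaling, voom and adjusted p alone.

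The replicate numbers gave no sign of pairing: deviations of same-numbered libraries correlated at -0.104, -0.0857 and -0.0235. No cisplatin library was closest to the PBS library of its own number. With so few libraries per group this cannot exclude a pairing. With the numbers as a replicate block, 625 genes were called higher and 1515 lower, and 2135 of the 2142 genes called without the block were called with it. The list counts did not change. Ctgf rests on 20 to 24 reads per cisplatin library, which limits its precision most. Beside the reversed values above, 16 values lost their call without turning and 26 gained one. These counts cover the genes named by rule or as a fixed set, including the gene not reported here. Itgam, Lyz2 and Mertk are outside them, and lost their calls with Y-linked scaling (0.439, 0.577 and 0.665). Among the list medians, those of the 4 pathway lists became positive with ID8 scaling (0.55 to 1.74). That of the Hippo kinases and upstream regulators was also positive with voom (0.041). The median of the fibroblast and endothelial markers became 1.19 with ID8 scaling and 0.18 with no filter. With Y-linked scaling the median of the macrophage markers became -0.09 and that of the Y-linked genes -0.0006. Ctgf ran from -5.32 with voom to -3.74 over the alternatives other than the marker-based scalings.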
